A study of Mus musculus with 2 samples.

Results

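The 9 neural miRNAs described here are mmu-miR-124-3p, mmu-miR-124-5p, mmu-miR-9-5p, mmu-miR-9-3p, mmu-miR-7a-5p, mmu-miR-128-3p, mmu-miR-132-3p, mmu-miR-212-3p and mmu-miR-137-3p, written below without the prefix, out of 1881 mouse miRNAs on an Agilent array. They were chosen by name, with their signals in these samples already known, so the differences given for them are descriptions and not tests. The samples were exosomes, small vesicles that cells release, isolated by differential ultracentrifugation from culture supernatants. KPC-exosomes came from a murine pancreatic cancer line grown from tumours of mice carrying the alleles KrasLSL-G12D/+ and Trp53LSL-R172H/+ with Pdx1-Cre, in which the Pdx1 promoter drives Cre in the developing pancreas, and this line was kept in RPMI-1640 with 20% FBS. MPDC-exosomes came from a purchased murine pancreatic ductal epithelial line kept in DMEM with 10% FBS. Before supernatants were collected, the medium was changed to one with FBS cleared of exosomes by centrifugation. Each group is a single cell line, and line, medium and serum content cannot be told apart from the tumour origin. Total RNA of each preparation was hybridised with the dye Cy3 to 1 array, and both arrays lay on 1 slide. There was 1 sample per group, so no SD, no p-value and no test across samples is given. The precision of every value is limited by this number of arrays.

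miR-124 and miR-9 are among the most abundant miRNAs of the vertebrate nervous system, where they restrain non-neuronal genes and the repressors that keep neuronal genes silent. miR-128, miR-137, miR-132 and miR-212 act in neuronal maturation and activity, and the last pair is made from neighbouring genes that respond to the transcription factor CREB. miR-7a is also made in endocrine cells, including those of the pancreatic islets. A miRNA recognises its targets mainly through its seed, bases 2 to 8 counted from the 5′ end, and a hairpin can release a miRNA from each of its arms, named 5p and 3p.

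Mature sequences of 7 of the 9 miRNAs were matched in RefSeq (GRCm38.p6) and are shown 5′ to 3′ with the seed in capitals, because the seeds separate the members into those that share targets by sequence and those that do not. miR-124-3p and miR-124-5p are named only. The other 7, followed by miR-7b-5p, the single other miRNA on the array that shares a seed with a member, among 1608 array miRNAs with a matched sequence, were as follows.
miR-9-5p: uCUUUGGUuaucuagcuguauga
miR-9-3p: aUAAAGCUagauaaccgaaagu
miR-7a-5p: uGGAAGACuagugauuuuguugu
miR-128-3p: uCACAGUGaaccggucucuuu
miR-137-3p: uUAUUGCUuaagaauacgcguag
miR-132-3p: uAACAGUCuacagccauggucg
miR-212-3p: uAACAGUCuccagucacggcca
miR-7b-5p: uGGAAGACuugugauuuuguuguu
miR-132-3p and miR-212-3p had the seed AACAGUC in common and were the same at 17 of 22 positions. Counted from 1 at the 5′ end, miR-212-3p differed from miR-132-3p by A10C, C14U, U17C, U20C and G22A. miR-7a-5p and miR-7b-5p had the seed GGAAGAC in common and differed over the first 23 bases by A10U only. The remaining seeds were each held by 1 member.

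The array read each member with 2 probes that differ in length by 1 base. Those of the pairs with a shared seed are shown 5′ to 3′, since similar miRNAs can be read by each other's probes, and the capital marks the base by which the longer probe exceeds the shorter.
miR-132-3p, shorter probe: cgaccatggctgtag
miR-132-3p, longer probe: cgaccatggctgtagA
miR-212-3p, shorter probe: tggccgtgactgg
miR-212-3p, longer probe: tggccgtgactggA
miR-7a-5p, shorter probe: acaacaaaatcactagtcttc
miR-7a-5p, longer probe: acaacaaaatcactagtcttcC
miR-7b-5p, shorter probe: acaacaaaatcacaagtcttcc
miR-7b-5p, longer probe: acaacaaaatcacaagtcttccA
The probes of miR-132-3p and miR-212-3p shared no run longer than 4 bases, and those of miR-212-3p began at bases 10 and 9 of the miRNA and so did not reach the shared seed. The probes of miR-7a-5p and miR-7b-5p shared a run of 13 bases, so some of either signal could be the other miRNA. How far this occurred was not tested.

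Several members are made from more than 1 gene, and the arrays do not separate the copies. The file places the 15-base probe of miR-124-3p (mm9) at chr2:180628793-180628807, chr3:17695728-17695742 and chr14:65209551-65209565, and the 19-base probe of miR-9-5p at chr3:88019539-88019557, chr7:86650169-86650187 and chr13:83878430-83878448. In RefSeq, Mir124a-1 and Mir124a-2 lie within the long non-coding RNA genes Mir124a-1hg and Mir124-2hg, and the 3 genes of miR-9 lie within the long non-coding RNA genes Gm3764, C130071C03Rik and Mir9-3hg. The 22-base probe of miR-7a-5p was placed at chr7:86033182-86033203 and chr13:58494164-58494185, of which the chromosome 13 gene, Mir7-1, lies within the protein-coding gene Hnrnpk. miR-128-3p is made from Mir128-1 within R3hdm1 on chromosome 1 and from Mir128-2 within Arpp21 on chromosome 9. Mir132 and Mir212 are neighbours on chromosome 11, where the 16-base probe of miR-132-3p was placed at chr11:74987232-74987246. Mir137 lies on chromosome 3, where the 20-base probe of miR-137-3p was placed at chr3:118136823-118136841. As the file lists them, these intervals of miR-132-3p and miR-137-3p are each 1 base shorter than the probe.

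The signal of a miRNA is the sum over its probes whose total signal exceeded 3 times their scanner error, in arbitrary intensity units after background subtraction. A signal was detected for 772 of 1881 miRNAs in KPC-exosomes and for 1031 in MPDC-exosomes, and 726 were detected on both arrays. Before normalization the median log2 difference of those 726, KPC-exosomes minus MPDC-exosomes, was −1.37, whereas 4 spike-in controls differed by −0.31 to 0.38. Quantile normalization, which gives both arrays the same distribution of signals and which returned the log2 values the authors deposited to within 1.11e-05, moved that median to 0.53. Differences are therefore given on both scales, and the error beside a difference is the scanner error alone.

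Marker miRNAs were set against the labels, and their part in the differences of the neural miRNAs was not tested. Their lists were chosen with earlier results of these data known, and their signals are given before normalization. Of 5 epithelial miRNAs of the miR-200 family, 5 were detected on both arrays, with signals of 3.38 to 42.8 (sum 98.8) in KPC-exosomes and 38.3 to 991 (sum 1669) in MPDC-exosomes. After normalization 3 of them were called lower in KPC-exosomes, and miR-141-3p and miR-429-3p, at log2 differences of −0.39 and −0.66, were not called. Of 5 pancreas miRNAs, miR-216a-5p and miR-216b-5p of acinar cells and miR-375-3p of islet cells were detected on neither array, miR-217-5p was detected at 60.9 in KPC-exosomes alone, and miR-148a-3p at 1190 in MPDC-exosomes alone. The clusters of miR-290 to miR-295 and of miR-302a to miR-302d with their neighbour, which mark pluripotent cells, were detected for 10 of 10 listed members in MPDC-exosomes, at 103 to 135570 (sum 484117), and for 6 of 10 in KPC-exosomes, at 11.8 to 210 (sum 657). The MPDC-exosomes, labelled as ductal epithelial, thus carried bright signals of pluripotent cell markers beside the neural miRNAs, while miR-302a-3p, miR-302b-3p, miR-302d-3p and miR-367-3p were not detected in KPC-exosomes. Blood cell miRNAs were detected for 3 of 5 in KPC-exosomes (sum 236) and 4 of 5 in MPDC-exosomes (sum 426). Among them miR-142a-3p was brighter in KPC-exosomes (188) than in MPDC-exosomes (29.1). In contrast, miR-223-3p and miR-451a were dimmer in KPC-exosomes as scanned (log2 differences −2.52 and −2.66), and miR-150-5p was not detected there. After normalization miR-223-3p (−0.66) and miR-451a (−0.82) were not called. Muscle miRNAs were detected for 2 of 3 in KPC-exosomes (sum 17.7) and 3 of 3 in MPDC-exosomes (sum 42.0). The last sum depends on miR-1a-3p, whose probes in MPDC-exosomes read 5.64 ± 1.15 and −0.331 ± 0.995 with no spot above 26.7, while Feature Extraction wrote a total of 35035 for it, with which the sum would be 35071. The direction of the muscle miRNAs also turned on the scaling. miR-206-3p moved from a log2 difference of −0.39 before to 4.02 after normalization, and miR-133a-3p from −1.68 to 0.14. After normalization miR-1a-3p had no bound.

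All 9 neural miRNAs were detected in MPDC-exosomes and 6 of 9 in KPC-exosomes, where 54.8% and 41.0% of all array miRNAs were detected. miR-124-5p, miR-9-5p and miR-137-3p were detected in MPDC-exosomes only, as were 16.2% of all miRNAs, and no member was detected in KPC-exosomes only, as were 2.45% of all miRNAs. By the filter of the study's methods, detection on at least 1 array and a difference of at least 2-fold after normalization, 7 members were lower and 2, miR-132-3p and miR-212-3p, were higher in KPC-exosomes. Of the 1077 miRNAs detected on at least 1 array, 42.7% were lower and 31.5% were higher by that filter. Before normalization 7 members were lower and 0 were higher by 2-fold, beside 68.0% and 11.1% of the 1077. Since the members were chosen on this comparison, nothing further is read from these counts.

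Undetected signals sit at a floor of 0.1, so a fold against them is given only as a bound. The bound uses the highest of 3 values: the lowest detected signal of that array, the sum over every probe of that miRNA, detected or not, and the summed detection limits of its probes. With these bounds 5 members were at least 2-fold lower and 2 higher after normalization, and 6 were lower and 0 higher before it. Of the 1077 miRNAs, 21.2% and 31.5% passed after normalization, and 55.8% and 8.73% before it. For the 6 members detected on both arrays, the median log2 difference was −4.08 before and −2.34 after normalization, beside −1.37 and 0.53 for all 726.

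**Figure D1:**
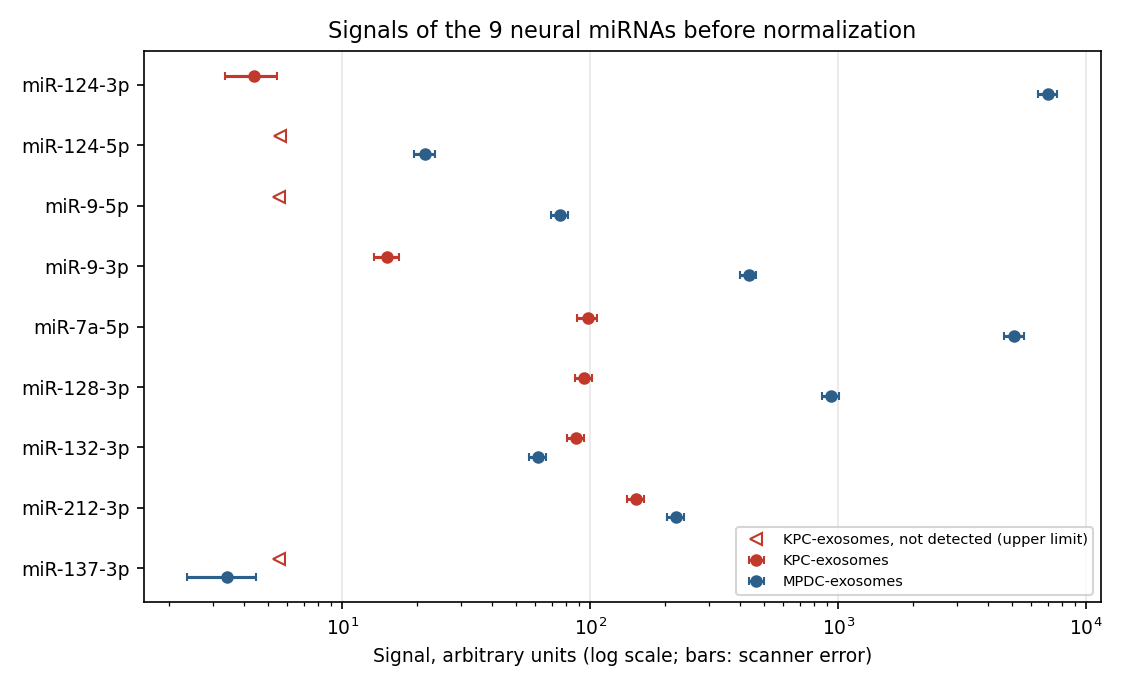
Signals of the 9 neural miRNAs in KPC-exosomes and MPDC-exosomes before normalization, in arbitrary units on a log axis, with scanner errors as bars and open triangles at the upper limit where a miRNA was not detected. miR-124-3p spans the widest gap, from 4.40 to 7005, while miR-132-3p and miR-212-3p differ by 1.42-fold and 1.46-fold.

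miR-124-3p, the arm through which miR-124 is best known to act in neurons, had a signal of 4.40 ± 1.03 in KPC-exosomes and 7005 ± 631 in MPDC-exosomes. It was 1592-fold lower in KPC-exosomes before normalization (log2 difference −10.64, scanner error 0.36) and 430-fold lower after it (−8.75). By this sum over detected probes, no other of the 726 miRNAs had a lower difference on either scale. Before normalization miR-291a-5p came close, at −10.26 from a KPC-exosome signal of 1.79 ± 0.471, so the first place is not firm. The KPC-exosome signal came from 1 of 2 probes and was near its detection limit. It was below the summed detection limits of the 2 probes, 5.90, the limit used for undetected miRNAs, so the folds are approximate. The 15-base probe read 4.40 ± 1.03 against a limit of 3.09, and the 14-base probe read 1.06 ± 0.936, which was below its limit of 2.81. In MPDC-exosomes the same probes read 6265 ± 627 and 740 ± 74.0. The 15-base probe alone gave a log2 difference of −10.48 before normalization (scanner error 0.37).

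The 15 spots of the 15-base probe ranged from 11.6 to 21.6 (median 16.0) in KPC-exosomes, and 5 of them were well above background. In MPDC-exosomes they ranged from 21773 to 23622 (median 22946). The spots of the 14-base probe ranged from 0.0706 to 8.19 and from 2567 to 2819. Neither probe had spots that overlapped between the arrays, so the direction did not rest on single spots. Its size did rest on how the KPC-exosome signal was summed. The total that Feature Extraction wrote for miR-124-3p in KPC-exosomes was 93.6 in place of 4.40, which gave a log2 difference of −6.23 before and −4.55 after normalization. With these totals 12 of the 726 miRNAs had a lower difference than miR-124-3p on each scale. Such totals differed from the sum over detected probes for 143 of 163 miRNAs with some but not all probes detected in KPC-exosomes, and for 0 of 609 with all probes detected, at a tolerance of 0.01 on the log2 scale. No other member was affected on either array.

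miR-124-5p, the opposite arm of the same hairpins, was not detected in KPC-exosomes and had a signal of 21.5 ± 2.14 in MPDC-exosomes, where both probes were detected. Its limit in KPC-exosomes was 5.58, and the signal over all its probes there was 0.236. It was at least 3.85-fold lower before normalization, but at least 1.01-fold lower after it, which is close to no bound. Both arms of miR-124 were thus dimmer in KPC-exosomes as scanned, and for the 5p arm the size depended on the scaling.

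miR-9-5p, which targets genes of neural progenitor proliferation, was not detected in KPC-exosomes, with a limit of 5.57, and had a signal of 75.4 ± 5.90 in MPDC-exosomes. It was at least 13.5-fold lower in KPC-exosomes before and at least 3.68-fold lower after normalization. The spots of its 19-base probe ranged from −3.11 to 15.0 in KPC-exosomes, with a median of 1.51, and from 157 to 201 in MPDC-exosomes. Those of the 18-base probe ranged from −2.83 to 3.76 and from 72.1 to 97.0. The KPC-exosome spots lay around 0, that is, at the local background.

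miR-9-3p, the other arm of the miR-9 hairpins and also active in neural cells, had a signal of 15.1 ± 1.74 in KPC-exosomes and 435 ± 33.2 in MPDC-exosomes. It was 28.8-fold lower in KPC-exosomes before normalization (log2 difference −4.85, scanner error 0.20) and 8.07-fold lower after it (−3.01). Its 19-base and 18-base probes gave log2 differences of −4.87 and −4.80, which are closer to each other than their scanner errors of 0.24 and 0.35. The 3p arm was thus measured on both arrays while the 5p arm had only a bound.

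**Figure D2:**
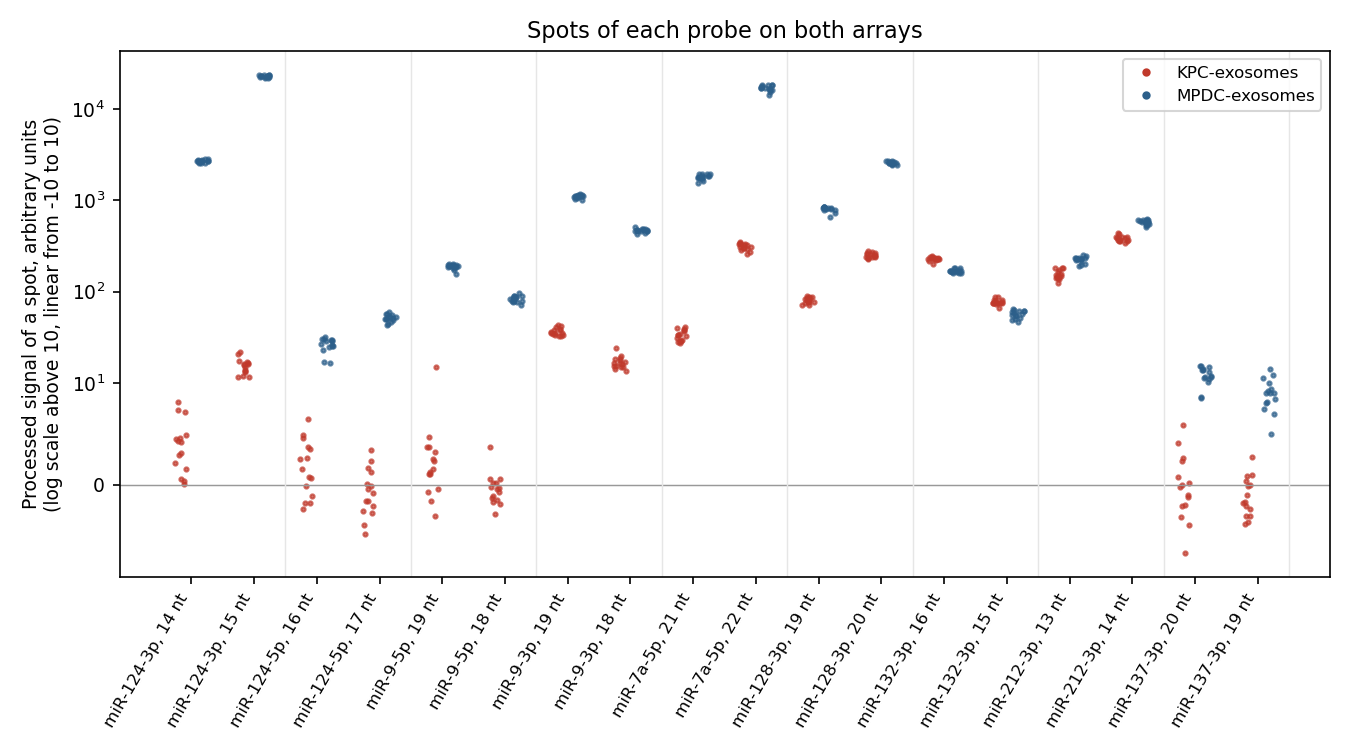
Processed signal of each of 15 spots per array for the 18 probes of the 9 neural miRNAs, in arbitrary units on an axis that is linear from −10 to 10 and logarithmic beyond. Spots of KPC-exosomes and MPDC-exosomes do not overlap for any of the 18 probes, and those of KPC-exosomes lie higher only for the 2 probes of miR-132-3p.

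miR-7a-5p, which is made in neurons and in neuroendocrine cells such as those of the islets, had a signal of 97.6 ± 8.98 in KPC-exosomes and 5136 ± 468 in MPDC-exosomes. It was 52.6-fold lower in KPC-exosomes before normalization (log2 difference −5.72, scanner error 0.19) and 16.0-fold lower after it (−4.00), and 14 of the 726 miRNAs had a lower difference on each scale. The spots of its 22-base probe ranged from 258 to 345 (median 312) in KPC-exosomes and from 14068 to 18275 (median 16828) in MPDC-exosomes. The 21-base probe gave 27.5 to 40.9 and 1526 to 1949. The probes, which differ by the single base capitalised above, gave log2 differences of −5.70 and −5.72.

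miR-7b-5p, with the same seed as miR-7a-5p and made from a gene of its own, was not detected in KPC-exosomes and had a signal of 143 ± 10.5 in MPDC-exosomes. It was at least 25.5-fold lower before and at least 6.77-fold lower after normalization. miR-7a-1-3p, from the opposite arm of 1 of the miR-7a hairpins, had a signal of 6.07 ± 1.11 in KPC-exosomes and 80.9 ± 6.79 in MPDC-exosomes. Its log2 difference was −3.74 before and −1.86 after normalization. The difference of miR-7a-5p was lower than that of miR-7a-1-3p by a log2 value of −1.98 before and −2.14 after normalization, with a scanner error of 0.35. miR-7a-1-3p was read in KPC-exosomes by 1 of 2 probes, and the Feature Extraction total of 21.9 there gave it differences of −1.89 and −0.08, which widened the gap to −3.83 and −3.87. As scanned, both arms and miR-7b-5p were thus dimmer in KPC-exosomes. For miR-7b-5p there was only a bound, and some of its signal could be miR-7a-5p. After normalization miR-7a-1-3p was close to no difference with the Feature Extraction total.

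miR-128-3p, a miRNA of postmitotic neurons, had a signal of 94.1 ± 7.61 in KPC-exosomes and 931 ± 74.2 in MPDC-exosomes. It was 9.90-fold lower in KPC-exosomes before normalization (log2 difference −3.31, scanner error 0.16) and 3.15-fold lower after it (−1.66). Its probes gave log2 differences of −3.29 and −3.31. The spots of the 20-base probe ranged from 230 to 277 (median 247) in KPC-exosomes and from 2400 to 2714 (median 2564) in MPDC-exosomes, with no overlap. From the opposite arm, miR-128-2-5p was not detected in KPC-exosomes and had a signal of 16.5 ± 1.84 in MPDC-exosomes, at least 2.93-fold lower before normalization and with no bound after it.

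miR-137-3p, which is linked to neuronal differentiation and synaptic genes, was at the edge of detection. It was not detected in KPC-exosomes, with a limit of 5.57, and had a signal of 3.43 ± 1.05 in MPDC-exosomes from 1 of 2 probes. The other probe read 2.53 ± 1.03 there and was not detected. None of the 15 spots of either probe was well above background on either array. The spots of the 20-base probe ranged from −6.69 to 5.93 in KPC-exosomes and from 8.58 to 15.4 in MPDC-exosomes. The MPDC-exosome signal was below the KPC-exosome limit, so no fold is given, although the floor of 0.1 places the miRNA among those called lower.

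miR-132-3p, which is induced by neuronal activity and promotes dendrite growth, had a signal of 87.5 ± 7.02 in KPC-exosomes and 61.4 ± 5.04 in MPDC-exosomes. It was 1.42-fold higher in KPC-exosomes before normalization (log2 difference 0.51, scanner error 0.17) and 4.82-fold higher after it (2.27). The spots of its 16-base probe ranged from 199 to 245 (median 229) in KPC-exosomes and from 160 to 183 (median 169) in MPDC-exosomes. Those of the 15-base probe ranged from 65.8 to 88.0 and from 46.7 to 65.5. The probes gave the same log2 difference, 0.51, and miR-132-3p was the only member with a higher signal in KPC-exosomes as scanned.

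miR-212-3p, the neighbour of miR-132-3p with the same seed, had a signal of 152 ± 11.8 in KPC-exosomes and 222 ± 17.2 in MPDC-exosomes. It was 1.46-fold lower in KPC-exosomes before normalization (log2 difference −0.54, scanner error 0.16) and 2.23-fold higher after it (1.16). The spots of its 14-base probe ranged from 343 to 433 (median 375) in KPC-exosomes and from 510 to 618 (median 584) in MPDC-exosomes, and the probes gave log2 differences of −0.51 and −0.55. The direction of miR-212-3p thus turned with the scaling, and without normalization it was not called.

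The difference of miR-132-3p exceeded that of miR-212-3p by a log2 value of 1.05 before and 1.11 after normalization, with a scanner error of 0.23. Scaling an array by a constant cancels in this gap, so its equal sign on both scales adds little. miR-132-5p and miR-212-5p, the opposite arms, were detected on neither array.

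Ordered by difference before normalization, the 6 members detected on both arrays ran from miR-124-3p through miR-7a-5p, miR-9-3p, miR-128-3p and miR-212-3p to miR-132-3p, and the order was the same after normalization. By the sum over detected probes, each neighbouring pair in that order differed by more than its scanner error. The gaps before normalization were −4.92 (error 0.41) between miR-124-3p and miR-7a-5p, −0.87 (error 0.27) between miR-7a-5p and miR-9-3p, and −1.54 (error 0.26) between miR-9-3p and miR-128-3p. The first gap was much smaller with the Feature Extraction totals. These gave −6.23 before and −4.55 after normalization for miR-124-3p, and −5.72 and −3.95 for miR-7a-5p. miR-212-3p exceeded miR-128-3p by 2.77 (error 0.23). Set against the median of all 726 miRNAs, miR-124-3p, miR-7a-5p, miR-9-3p and miR-128-3p were below it by −9.26, −4.35, −3.47 and −1.93 on the log2 scale before normalization. miR-132-3p and miR-212-3p were above it by 1.88 and 0.83.

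**Figure D3:**
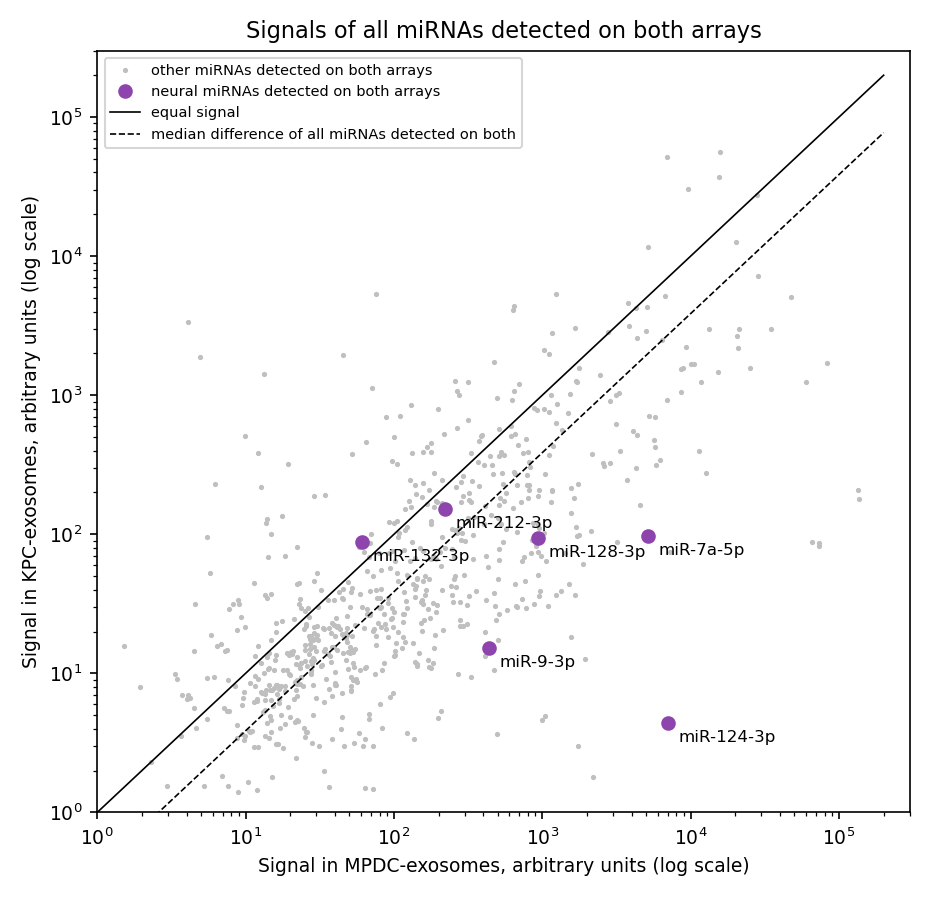
Signals of miRNAs detected on both arrays, MPDC-exosomes on the horizontal and KPC-exosomes on the vertical axis, in arbitrary units on log axes before normalization, with lines for equal signal and for the median difference of −1.37. Of the 6 neural miRNAs shown, 4 lie below the median line, miR-124-3p farthest, and miR-132-3p and miR-212-3p lie above it.

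All 18 probes of the 9 members had spots that did not overlap between the arrays, as had 44.1% of all 4415 probes. The KPC-exosome spots were lower for 16 of the 18 probes and higher for 2, beside 38.0% and 6.14% of all probes. Of 270 spots of the members on each array, 7 in KPC-exosomes and 8 in MPDC-exosomes carried an outlier flag, and none was saturated. Spots of 1 array share the same RNA and are not replicates of a condition.

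The setting that scales the arrays moved the differences of the 6 members together. Over 16 settings the difference minus the median of those 726 miRNAs ran from −9.35 to −5.34 for miR-124-3p, from −4.74 to −4.01 for miR-7a-5p, from −3.81 to −2.36 for miR-9-3p and from −2.50 to −1.73 for miR-128-3p. It ran from 1.27 to 2.04 for miR-132-3p and from 0.36 to 0.97 for miR-212-3p. Relative to that median, the side on which each of the 6 lay was the same under the 16 settings. Several of these could not have changed it, because scaling an array by a constant cancels in this value. The sign of miR-212-3p itself was not the same under all 16.

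**Figure D4:**
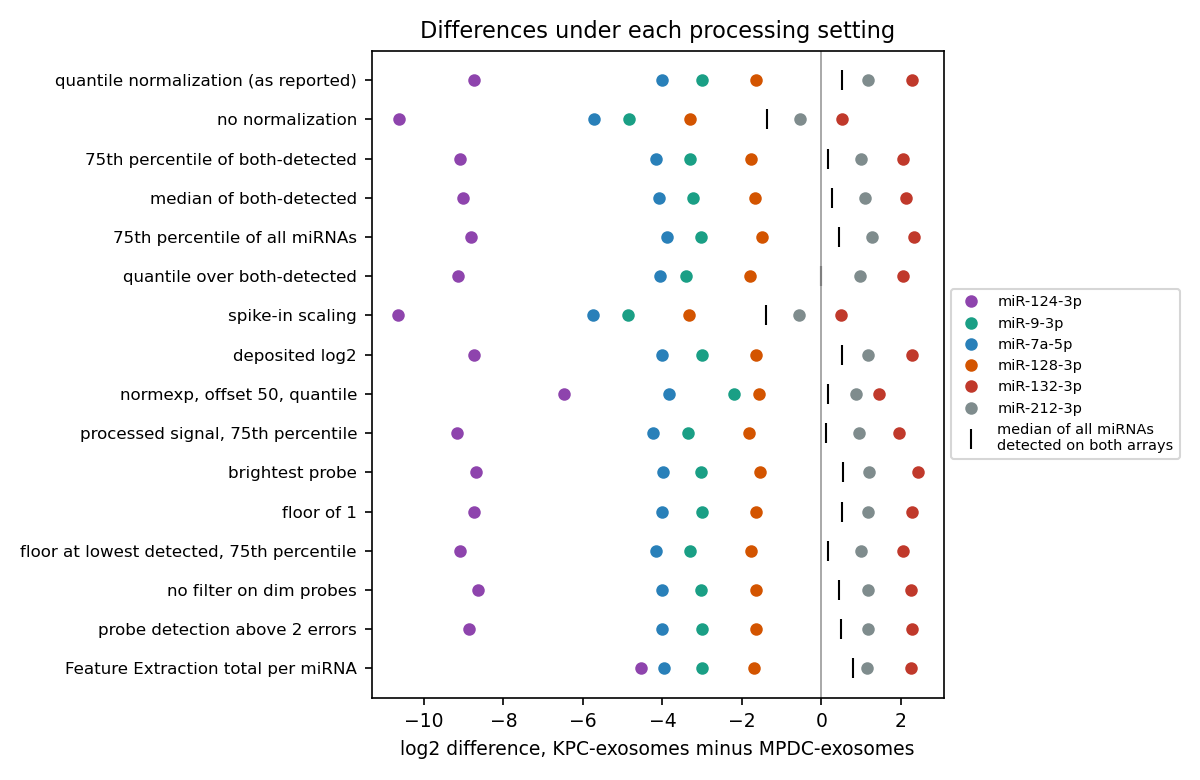
Log2 difference, KPC-exosomes minus MPDC-exosomes, of the 6 neural miRNAs detected on both arrays under each processing setting, with a black tick for the median of the 726 miRNAs. Without normalization or with spike-in scaling the points and the median shift to lower values together, and miR-212-3p falls below 0.

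The miRNAs whose signals on the 2 arrays were most like those of miR-124-3p were taken from the other 725 detected on both arrays, by distance over the log2 signals before normalization. They were miR-669n (distance 2.08), miR-291a-5p (2.12), miR-669f-3p (2.41), miR-196a-5p (2.76) and miR-200c-3p (2.82). miR-669n had signals of 3.01 and 1745 in KPC-exosomes and MPDC-exosomes, miR-291a-5p had 1.79 and 2198, and miR-200c-3p had 4.58 and 991. With the Feature Extraction totals, 0 of these 5 were among the 5 nearest. miR-291a-5p comes from the miR-290 to miR-295 cluster and miR-200c-3p from the miR-200 family.

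Beyond the members, 13 other arms and relatives were listed, of which 9 were on the array. miR-7a-1-3p was detected on both arrays, miR-7b-5p, miR-7b-3p and miR-128-2-5p in MPDC-exosomes only, and miR-7a-2-3p, miR-128-1-5p, miR-132-5p, miR-212-5p and miR-137-5p on neither. All 4 detected were lower in KPC-exosomes by the filter, and 2 of them by at least 2-fold after normalization when bounds were used, beside 42.7% and 21.2% of the 1077 miRNAs detected on at least 1 array. With the Feature Extraction totals 3 were lower by the filter. miR-7b-3p had a signal of 10.9 ± 1.61 in MPDC-exosomes, at least 1.96-fold above its limit in KPC-exosomes before normalization and with no bound after it.

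A list of 26 other brain-enriched miRNAs was compared in the same way, and 25 were on the array. Like the other arms and relatives, they were chosen with earlier results of these data known. The counts and medians of both lists are therefore descriptions and not tests. Of the 25 brain-enriched miRNAs, 14 were detected in KPC-exosomes, 20 in MPDC-exosomes and 4 on neither array. By the filter 13 were lower in KPC-exosomes, 4 were higher and 4 of those detected were not called, and with bounds 10 were lower and 4 higher. Of the 1077 miRNAs, 42.7% were lower and 31.5% higher by the filter, and 21.2% and 31.5% with bounds. Before normalization 17 were lower and 1 was higher, and with bounds 17 were lower and 0 higher, beside 68.0% and 11.1%, and 55.8% and 8.73%, of the 1077. With the Feature Extraction totals 11 were lower and 6 higher by the filter, and some directions turned, as given below. Taking the bound where a signal was undetected, the list had a median log2 difference of −1.20 after normalization and −2.85 before it, beside 0.39 and −1.39 for all miRNAs with such a value and −1.77 and −3.53 for 8 of the 9 members.

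miR-135b-5p was not detected in KPC-exosomes and had a signal of 2879 ± 206 in MPDC-exosomes, at least 515-fold lower before and 156-fold lower after normalization. miR-129-5p had signals of 3.38 ± 0.990 and 137 ± 10.0, a log2 difference of −5.34 before and −3.22 after it. miR-218-5p, a miRNA of motor neurons, had signals of 11.0 ± 1.55 and 179 ± 13.2 (−4.03 and −2.24). These were dimmer in KPC-exosomes on both scales.

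miR-219a-5p, which promotes oligodendrocyte differentiation, had signals of 39.9 ± 3.21 in KPC-exosomes and 212 ± 15.6 in MPDC-exosomes, with a log2 difference of −2.41 before and −0.61 after normalization, so it was not called. Its relative miR-219a-2-3p was not detected in KPC-exosomes and had 40.0 ± 3.37 in MPDC-exosomes, at least 7.19-fold lower before and 1.996-fold lower after normalization. miR-138-5p was not detected in KPC-exosomes and had 59.4 ± 4.53 in MPDC-exosomes, at least 10.5-fold and 2.86-fold lower.

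The other listed miRNAs with a lower signal in KPC-exosomes fell into those with a measured difference and those with a bound. Signals in KPC-exosomes and MPDC-exosomes were 4.02 and 83.3 for miR-129-1-3p, 7.17 and 98.3 for miR-129-2-3p, 3.01 and 72.6 for miR-138-2-3p and 1.52 and 36.2 for miR-338-5p, and these 4 were called lower on both scales by the sum over detected probes. For 3 of them, read in KPC-exosomes by 1 probe, the Feature Extraction total gave other values. miR-129-1-3p (98.1 in KPC-exosomes) turned to log2 differences of 0.24 before and 1.97 after normalization, miR-338-5p (174) to 2.26 and 4.04, and miR-138-2-3p (28.0) to −1.37 and 0.42. For miR-129b-5p (11.4 and 26.1), miR-149-5p (16.9 and 48.1) and miR-184-3p (51.1 and 123), the log2 differences were −1.20, −1.51 and −1.26 before and 0.54, 0.30 and 0.59 after normalization, so none of these 3 was called after it. Not detected in KPC-exosomes were miR-135a-5p (86.8 in MPDC-exosomes), miR-598-3p (54.3), miR-153-3p (25.9) and miR-338-3p (12.1), with bounds before normalization of at least 15.6-fold, 9.50-fold, 4.66-fold and 2.17-fold lower. After normalization the bounds were 4.10-fold for miR-135a-5p, 2.63-fold for miR-598-3p and 1.30-fold for miR-153-3p, and miR-338-3p had none. In MPDC-exosomes miR-153-3p and miR-338-3p were each read by 1 probe, and their Feature Extraction totals there were 205 and 159.

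The 4 brain-enriched miRNAs that were higher after normalization were miR-138-1-3p, miR-330-3p, miR-383-5p and miR-326-3p. miR-138-1-3p had signals of 25.0 ± 2.21 and 40.7 ± 3.22, a log2 difference of −0.70 before and 1.12 after normalization. miR-330-3p, with 33.5 ± 2.89 and 39.4 ± 3.25, moved from −0.24 to 1.57. Like miR-212-3p, this pair was lower as scanned and higher after normalization. miR-383-5p had 6.57 ± 1.40 and 4.03 ± 1.08, a difference of 0.71 before (scanner error 0.49) and 4.28 after normalization. It was read by 1 of 2 probes in MPDC-exosomes, and the Feature Extraction total of 63.0 there turned the differences to −3.26 and −1.30. miR-326-3p was detected in KPC-exosomes only, at 7.82 ± 1.22 from 1 of 2 probes, against a limit of 6.13 in MPDC-exosomes. It was at least 1.28-fold higher before and 18.3-fold higher after normalization. After normalization the lowest detected signal was at log2 2.19 in KPC-exosomes and −1.36 in MPDC-exosomes. By the sum over detected probes, the sizes of miR-383-5p and miR-326-3p after it thus rested mainly on the scaling. For miR-326-3p the Feature Extraction total in KPC-exosomes was 76.3 in place of 7.82, so its size also rested on how the signal was summed.

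**Figure D5:**
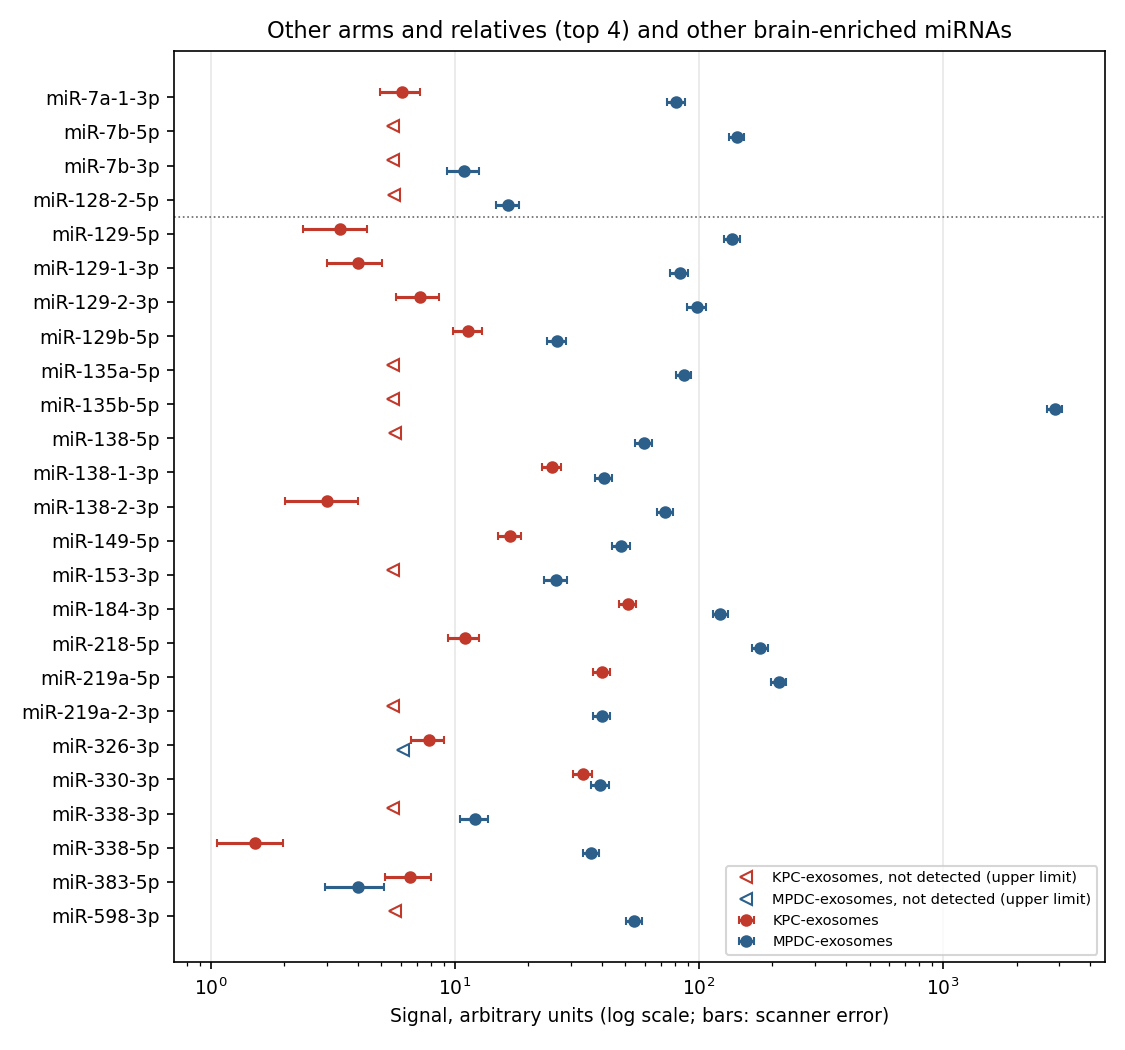
Signals of the detected other arms and relatives (upper 4) and of the detected brain-enriched miRNAs in KPC-exosomes and MPDC-exosomes before normalization, in arbitrary units on a log axis, with scanner errors as bars and open triangles at upper limits. By these sums over detected probes most lie higher in MPDC-exosomes, except miR-383-5p and miR-326-3p, and by the Feature Extraction totals, which are not drawn, miR-383-5p lies lower and miR-129-1-3p and miR-338-5p higher in KPC-exosomes.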

How the data were processed

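The authors deposited the scanner output of 1-colour Agilent arrays (Feature Extraction 10.7.1.1 per the file headers, 9.1 in the submitters' processing notes) as background-subtracted intensity with an error per spot and probe, and log2 values normalized in GeneSpring by a method not given in the sources used here. The deposited well-above-background, saturation and outlier flags were used as given. The labels describe a cRNA labelling kit.

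Probe totals above 3 errors were summed per miRNA, other signals were set to 0.1, and the log2 values of 1881 miRNAs and 21 control features were quantile normalized, with tied values averaged. A miRNA was called when detected on at least 1 array and at least 2-fold apart. With 1 array per group no test was made.

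The members and all lists (other arms and relatives, brain-enriched, pancreas, epithelial, pluripotent, blood and muscle miRNAs) were chosen with earlier results of these data known. Named were the members, the detected miRNAs of the first 2 of those lists, any array miRNA sharing a member's seed, the marker lists as wholes, and the 5 miRNAs nearest to miR-124-3p. In all, 18 alternatives were tried, 1 of them (the Feature Extraction total per miRNA) chosen after seeing the data. Python 3.11.15, numpy 2.4.6, pandas 2.3.3, matplotlib 3.10.9, R 4.3.3 and limma 3.58.1 were used.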

Additional observations from a re-analysis of the deposited data

How the results depend on the processing

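No paired analysis was possible because there was 1 sample per group, and for the same reason no replicate could be left out and the slide could not be a block. The 2 members called higher became 0 without normalization and 0 with spike-in scaling, and 1 with quantiles taken only over miRNAs detected in both, with normexp, with processed signals and with a 4-fold threshold. The 7 members called lower became 4 when detection on both arrays was required, and 5 with normexp and with a 4-fold threshold. They became 6 with a floor of 1, with a floor at the lowest detected signal and with a difference above 2 scanner errors. The 4 other arms and relatives called lower became 1 with normexp, 1 with detection on both arrays and 2 with a difference above 2 scanner errors. The 4 brain-enriched miRNAs called higher became 1 without normalization, 1 with spike-in scaling, 0 with normexp and 2 with a 4-fold threshold, and the 13 called lower became 4 with normexp and 6 with detection on both arrays. The log2 difference of miR-212-3p reversed to −0.54 without normalization and −0.57 with spike-in scaling, and the cause was not tested. Over the alternatives the other differences stayed on their side of 0, from −10.66 to −4.55 for miR-124-3p, −5.74 to −3.85 for miR-7a-5p, −4.87 to −2.19 for miR-9-3p, −3.33 to −1.48 for miR-128-3p and 0.49 to 2.42 for miR-132-3p. The bound of miR-9-5p ran from −3.78 to −1.71 and that of miR-124-5p from −1.97 to −0.01. No filter on dim probes and normexp give values in place of bounds, which were −5.83 and −1.10 for miR-9-5p, −3.99 and −0.41 for miR-124-5p, and −2.61 and −0.13 for miR-137-3p. The Feature Extraction total per miRNA turned miR-129-1-3p, miR-338-5p and miR-383-5p on both scales, and miR-138-2-3p after normalization. The signals of miR-124-3p in KPC-exosomes and of miR-137-3p on both arrays were at the limit of detection.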
